A study of Homo sapiens with 2 samples.

Results

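The genes described here are the cyclins, the cyclin-dependent kinases (CDKs) and their partners, the CDK inhibitors, the CDC25 phosphatases, the E2F and DP transcription factors and the pocket proteins. The rule that picks them uses gene symbols and no measured value, and they number 62 genes with 64 probes among 12445 genes named on the array. The measurements come from KYSE-170, an established line of human oesophageal squamous cell carcinoma, after transfection with synthetic miR-210, and from the same line after transfection with an oligoribonucleotide that the labels call ncRNA. All cells were grown in medium with fetal bovine serum and transfected with the reagent Hiperfect. Cy5-labelled cRNA made from 500 ng of total RNA was hybridised to a Toray oligonucleotide array. There was 1 array per transfection and the material is 1 cell line, so no value below has a replicate and no p-value was computed. The labels give neither the dose of the oligoribonucleotides nor the time of harvest.

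Cyclins bind and activate CDKs, and each phase of the cell cycle has its own pairs. Cyclin D with CDK4 or CDK6, and then cyclin E with CDK2, phosphorylate the pocket proteins RB1, RBL1 and RBL2, which releases E2F factors to switch on genes for DNA synthesis. Cyclin A and cyclin B with CDK1 carry the cell through the later phases into mitosis, and CDC25 phosphatases activate CDKs. The CDKN2 proteins inhibit CDK4 and CDK6, and the CDKN1 proteins inhibit a wider range of CDKs. Loss of this control is a regular feature of squamous carcinoma, and miR-210, a microRNA induced by low oxygen, has been reported to target E2F3.

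The mature 3p strand of miR-210 is printed because its seed, the stretch that pairs with target transcripts, is assumed to be what the transfection added to the cells. It lies on chr11:568112-568133 of GRCh38.p14, minus strand, in RefSeq, and capitals mark the seed at bases 2 to 8. The labels do not name the strand of miR-210 that was used.
hsa-miR-210-3p: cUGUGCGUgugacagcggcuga

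Values are deposited intensities. Differences are log2 ratios, miR-210 over ncRNA, taken once the arrays had been quantile normalized. Genes with a mean normalized level of at least 37.5, the median over probes, were kept, which left 48 of the 62 genes among 6684 genes in all. The brightest kept probe stood for its gene. The only error available is the spread between probes, the SD of a probe's log2 ratio around its gene, which was 0.44 over 251 genes with several kept probes. It leaves out any difference between cultures, RNA preparations or arrays. The median intensity of all probes was 36 on the miR-210 array and 39 on the ncRNA array. Of 9 squamous epithelial markers named on the array 8 were kept, with KRT14 at 404 and 376 and KRT5 at 496 and 290 on the miR-210 and ncRNA arrays. TP63, the transcription factor of squamous cells, was not kept, at 22 on the miR-210 array and 57 on the ncRNA array. COL1A1 of fibroblasts (16 and 21) and PTPRC of leukocytes (10 and 9) stood near the bottom of the range, although 3 of 7 fibroblast, 2 of 4 endothelial and 1 of 4 leukocyte markers passed the same limit, so passing it does not establish expression. Summed over the whole lists, in the same array order, squamous markers read 11594 and 15789, fibroblast markers 367 and 381, endothelial markers 204 and 244, and leukocyte markers 176 and 174. Most of the squamous sum was SFN, at 7094 and 12693. The part of these differences in the results was not tested.

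Across the 48 genes kept, the 2 arrays were alike for most, and a few regulators stood apart. With miR-210, E2F5 and CDKN3 were higher by 2-fold or more, CDKN3 only just, and CDKN2C, RBL1 and E2F2 were lower by 2-fold or more. The higher genes were 2 of 48, or 4.17%, where 3.02% of all genes reached that limit. The lower genes were 3 of 48, or 6.25%, where 3.19% of all genes did. Counting both directions gives 5 of 48, or 10.4%, beside 6.21% of all genes. These shares rest on 5 genes, and nothing particular to the group is read from them. Differences past the spread between probes numbered 8 in the higher direction, or 16.7%, where 18.0% of all genes did so. In the lower direction there were 10, or 20.8%, where 16.8% of all genes did so. The median log2 ratio was -0.03 with a SD of 0.56 across the 48 genes, and 0.01 with a SD of 0.54 across all genes kept. On the deposited scale without normalization, the median gene lay at -0.12, and 30.6% of all genes at least 2-fold apart were higher, in place of 48.7%.

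**Figure D1:**
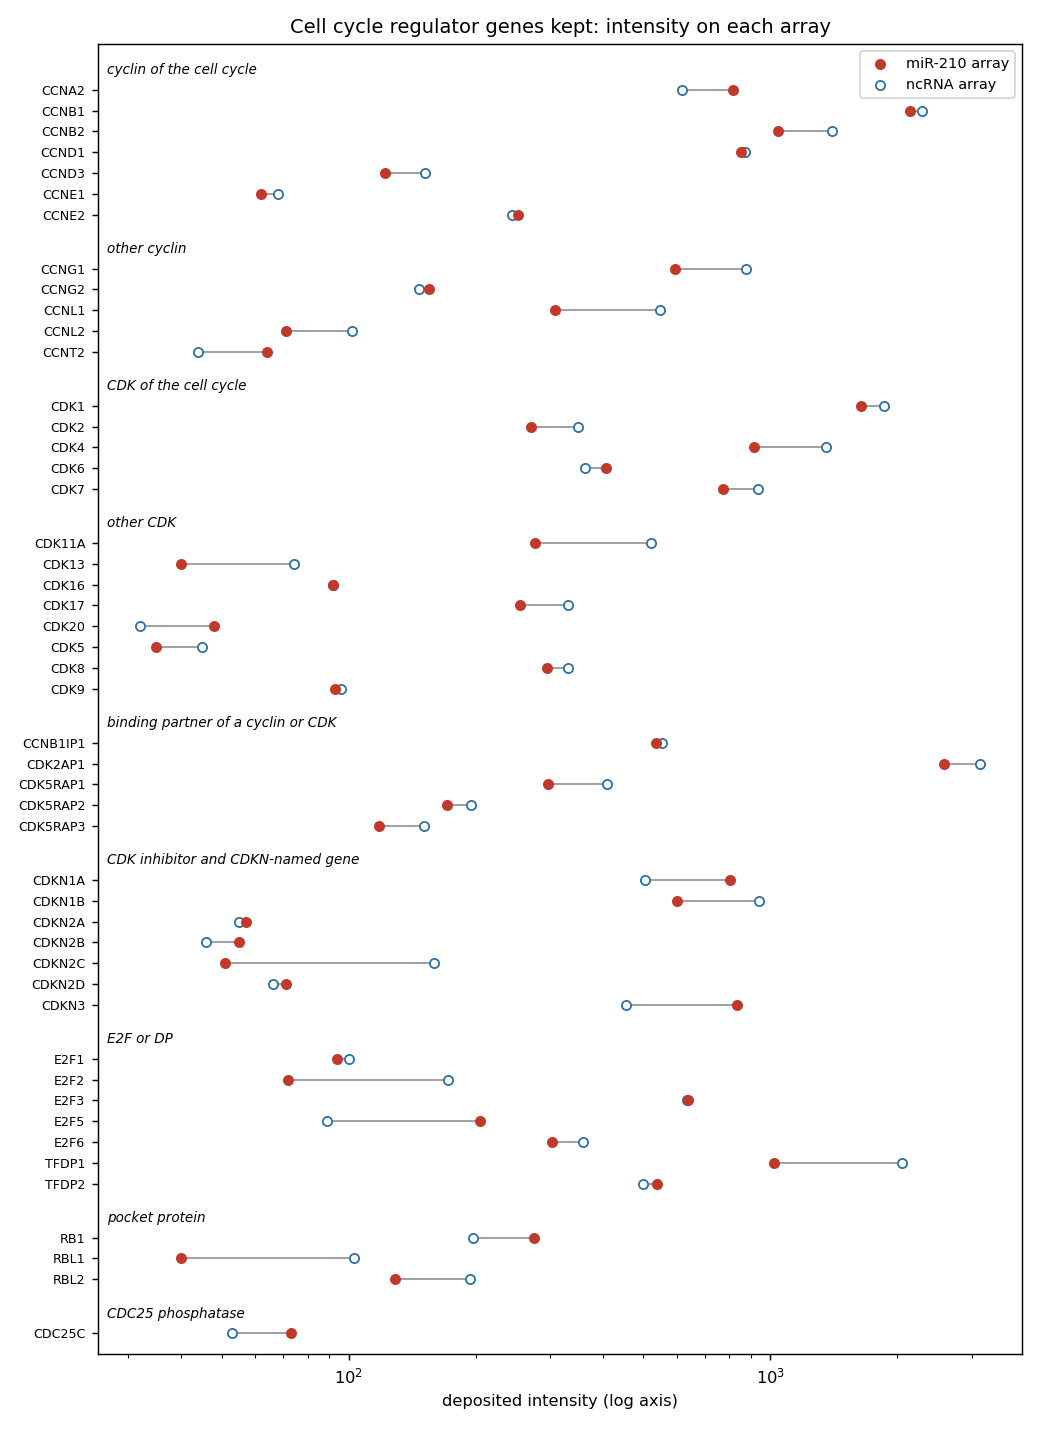
Deposited intensity (log axis) of each of the 48 genes kept on the miR-210 array (filled) and the ncRNA array (open), grouped by role, with a line joining the 2 values of a gene. The longest lines belong to CDKN2C, RBL1, E2F2 and E2F5, while E2F3, CCND1 and CDK16 have nearly the same value on both arrays.

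The E2F factors and their DP partners did not share a direction. E2F5, a repressor E2F that works with the pocket protein RBL2, read 205 on the miR-210 array and 89 on the ncRNA array, 2.48-fold higher with miR-210 at a log2 ratio of 1.31. Its ratio ranked 83 from the highest of all 6684 genes. E2F2, an activator E2F, read 72 on the miR-210 array and 172 on the ncRNA array, 2.21-fold lower at a log2 ratio of -1.14. E2F2 and E2F5 thus stood on opposite sides of 0, each more than 2-fold from it. E2F1, the best known activator, read 94 with miR-210 and 100 with ncRNA, a log2 ratio of 0.03. E2F3, the activator that miR-210 has been reported to target, read 637 with miR-210 and 636 with ncRNA, a log2 ratio of 0.11. That is an RNA value, protein was not measured, and the reported targeting was not tested. Neither E2F1 nor E2F3 differed between the arrays by more than the spread between probes, and E2F1 turned to -0.09 on the deposited scale, where E2F3 stood at 0.00. E2F6, a repressor that acts without pocket proteins, read 304 with miR-210 and 360 with ncRNA (log2 ratio -0.13).

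TFDP1, which encodes the DP partner that E2F factors need to bind DNA firmly, read 1018 on the miR-210 array and 2048 on the ncRNA array. It was 1.79-fold lower with miR-210, at a log2 ratio of -0.84, and passed 2-fold only on the deposited scale, at -1.01. TFDP2, the other DP partner, read 538 with miR-210 and 499 with ncRNA, at 0.20. The DP genes therefore differed from each other, with TFDP1 alone past the spread between probes.

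RBL1 led the pocket proteins, which hold E2F factors in check until CDKs phosphorylate them. RBL1 read 40 on the miR-210 array and 103 on the ncRNA array, 2.39-fold lower at a log2 ratio of -1.25. Its miR-210 value stood close to the level limit, so the size of this ratio is uncertain. RBL2 read 129 with miR-210 and 194 with ncRNA, a log2 ratio of -0.48, just past the spread between probes. RB1, the retinoblastoma tumour suppressor gene, lay on the other side of 0, at 275 with miR-210 and 197 with ncRNA, 1.52-fold higher at 0.60. The 3 genes lay further from 0 than the spread between probes, as did 34.8% of all genes, RB1 above 0 and RBL1 and RBL2 under it. Each kept its sign in every setting in which it had a value, which for RBL1 leaves out the stricter level filter.

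RBL1, E2F1 and E2F2 are textbook targets of E2F factors themselves, so the promoters of the members were searched for the E2F core site. The letters searched were TTTCCCGC, TTTCGCGC, TTTGCCGC and TTTGGCGC on both strands, in RefSeq windows from 250 bases before to 50 bases after each start in GRCh38.p14. The search was added after the ratios were seen. Windows were matched for 55 of the 62 genes. E2F5, CCNE2, CCND1, CCND2, CDK2, CDKN1C and CDKN2A-AS1 were not among them, so whether they hold a site is not known here. The search of the members left out 1 chromosome, which the shares over all genes and windows did not leave out. At least 1 window held a site in 7 of these 55 genes, or 12.7%, where 6.56% of the 5518 kept genes with a window, 3.99% of all 27305 genes with a window and 3.31% of the 35116 windows held one. These genes were RBL1, E2F2, TFDP1, E2F1, E2F3, CDK1 and CDC25A, and no site overlapped another. The 130 bases before the start are printed for the E2F, DP and pocket protein genes with a site, with the site in capitals, because they show members that share the letters with unlike ratios.
RBL1 (chr20:37095998-37096127, minus strand): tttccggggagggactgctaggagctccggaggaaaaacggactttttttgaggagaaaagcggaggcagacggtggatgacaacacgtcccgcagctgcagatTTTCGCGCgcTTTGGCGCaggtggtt
E2F2 (chr1:23531234-23531363, minus strand): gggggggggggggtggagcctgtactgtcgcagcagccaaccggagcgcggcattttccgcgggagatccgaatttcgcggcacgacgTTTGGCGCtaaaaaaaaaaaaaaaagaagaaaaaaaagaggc
TFDP1 (chr13:113584623-113584752, plus strand): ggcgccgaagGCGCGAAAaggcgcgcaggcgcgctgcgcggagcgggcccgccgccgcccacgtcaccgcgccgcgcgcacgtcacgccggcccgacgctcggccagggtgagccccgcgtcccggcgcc
E2F1 (chr20:33686386-33686515, minus strand): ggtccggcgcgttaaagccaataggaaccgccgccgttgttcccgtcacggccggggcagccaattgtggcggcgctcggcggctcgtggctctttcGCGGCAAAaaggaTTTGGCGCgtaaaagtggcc
E2F3 (chr6:20401749-20401878, plus strand): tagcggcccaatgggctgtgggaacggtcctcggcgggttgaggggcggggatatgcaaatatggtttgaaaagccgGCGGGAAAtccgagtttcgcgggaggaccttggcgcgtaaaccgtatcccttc
RBL1 held sites 26 and 16 bases before its start, and E2F1 held sites 33 and 20 bases before it. E2F2 held 1 site 42 bases before its start, E2F3 held 1 site 53 bases before the start of 1 of its 2 windows, and TFDP1 held 1 site 120 bases before its start.

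Promoters with and without these letters had like ratios across the array. Of 362 kept genes with a site, 10 passed 2-fold in each direction, 2.76% each, with a median log2 ratio of 0.00. Of 5156 kept genes with a window but no site, 161 went each way, 3.12% each, with a median of 0.01. Among the 6 members kept that held a site, RBL1, E2F2 and TFDP1 were lower with miR-210, while CDK1, E2F1 and E2F3 lay within 0.11 of 0. A match of letters is a description and does not show that a factor binds there.

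The CDK inhibitors held both the lowest ratio of all the regulators and 1 of the higher ones. CDKN2C, an INK4 inhibitor of CDK4 and CDK6, read 51 on the miR-210 array and 159 on the ncRNA array. It was 2.89-fold lower, at a log2 ratio of -1.53, the lowest of the 48 genes and rank 57 from the lowest of all 6684. The other INK4 genes did not share this. CDKN2A read 57 with miR-210 and 55 with ncRNA, and CDKN2D read 71 with miR-210 and 66 with ncRNA, with log2 ratios of 0.15 and 0.22. CDKN2B read 55 with miR-210 and 46 with ncRNA, at 0.36, and its second probe, which was under the level limit, read 21 and 12. Among kept probes of the INK4 family, then, CDKN2C alone lay past the spread between probes. The second CDKN2B probe stood at 0.84, on values too dim to rely on. All INK4 genes were dim on the miR-210 array, so the sizes of their ratios are uncertain.

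The CDKN1 inhibitors, which act on a wider range of CDKs, differed in direction. CDKN1A, a target of the tumour suppressor p53, read 802 on the miR-210 array and 504 on the ncRNA array, 1.73-fold higher at a log2 ratio of 0.79. CDKN1B, which holds cells in quiescence, read 601 on the miR-210 array and 938 on the ncRNA array, 1.43-fold lower at -0.52. CDKN1C, the imprinted member, was not kept, at 1 on the miR-210 array and 11 on the ncRNA array, and no ratio is given for values so near 0. CDKN3, a phosphatase that removes the activating phosphate from CDKs and peaks late in the cycle, was the only kept gene of the 48 with a second kept probe. The brighter probe read 834 with miR-210 and 454 with ncRNA, 2.02-fold higher at a log2 ratio of 1.02, and the other read 134 with miR-210 and 86 with ncRNA, at 0.76. Both probes were higher on the miR-210 array, and their mean of 0.89 was under 2-fold.

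**Figure D2:**
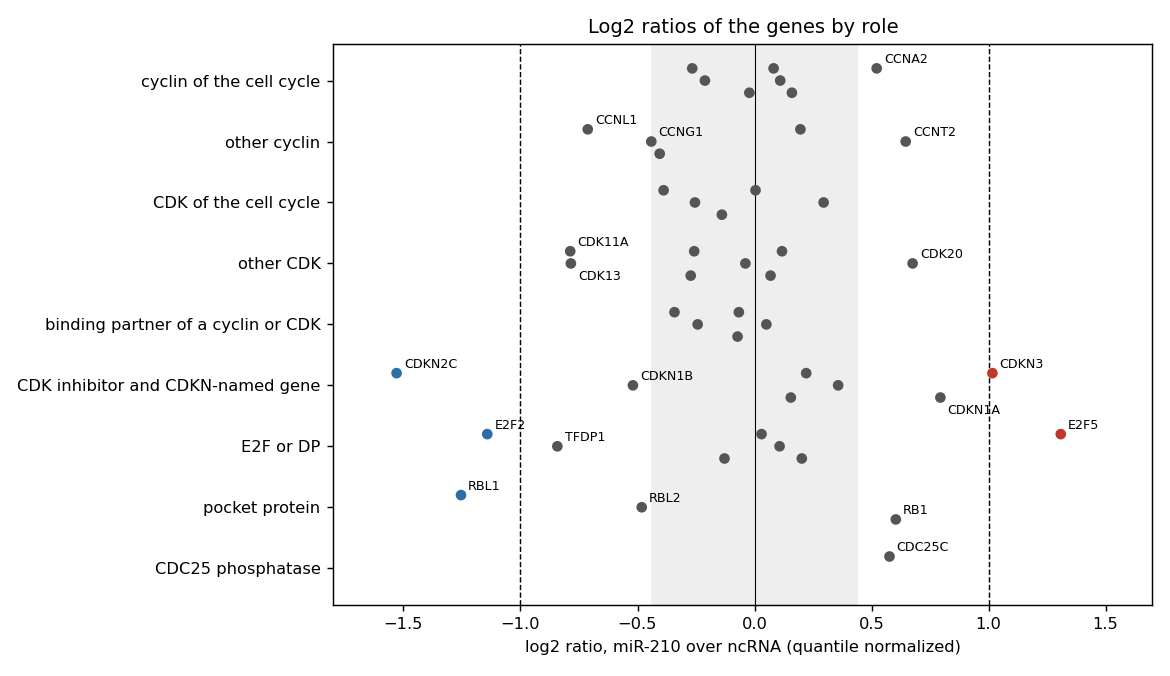
Log2 ratio of miR-210 over ncRNA for each of the 48 genes, by role; the grey band is the spread between probes (0.44), dashed lines mark 2-fold, and genes outside the band are named. The 5 genes past 2-fold lie among the inhibitors, the E2F factors and the pocket proteins. None of the 12 cyclins and 13 CDKs kept reached 2-fold, where 6.21% of all genes did. These groups are too small to be set apart by that share.

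Cyclins of the cell cycle were close to even. CCND1, the cyclin D gene often amplified in squamous carcinoma, read 852 with miR-210 and 869 with ncRNA, a log2 ratio of 0.11. CCND3 read 122 with miR-210 and 152 with ncRNA, at -0.21. CCNE1 stood at -0.02 (62 with miR-210 and 68 with ncRNA) and CCNE2 at 0.16 (252 and 244). None of these cyclins of G1 differed by more than the spread between probes. CCNA2, the cyclin of S phase and G2, was the exception among the 7 kept cell cycle cyclins, at 817 with miR-210 and 618 with ncRNA, 1.44-fold higher at 0.52. That makes 1 of 7 past the spread between probes, or 14.3%, where 34.8% of all genes were. A group of 7 genes is too small to read against that share. The mitotic cyclins CCNB1, at 2147 with miR-210 and 2294 with ncRNA, and CCNB2, at 1040 and 1398, had log2 ratios of 0.08 and -0.27. CCNB2 was the lowest of the group. On the deposited scale CCNB1 and CCND1 turned to -0.10 and -0.03, so their direction depends on the scale.

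The CDKs that pair with these cyclins were likewise even. CDK1, the mitotic kinase, whose probe carries its older name CDC2, read 1641 with miR-210 and 1865 with ncRNA, a log2 ratio of 0.00. CDK2 read 270 with miR-210 and 350 with ncRNA, at -0.25. CDK4 was the lowest, at 917 with miR-210 and 1355 with ncRNA (-0.39), and CDK6 the highest, at 408 and 363 (0.30). CDK7, which activates other CDKs and also belongs to the general transcription machinery, stood at -0.14. No gene of this group passed the spread between probes, where 34.8% of all genes did, and CDK1 stood at -0.18 on the deposited scale.

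The 5 other cyclins kept, among them those of transcription and splicing, had log2 ratios with a SD of 0.55. For the 8 other CDKs the SD was 0.49. It was 0.26 for the cell cycle cyclins, 0.26 for the cell cycle CDKs and 0.54 for all genes kept. These differences were not tested. CCNL1, a cyclin L of the splicing machinery, read 308 on the miR-210 array and 546 on the ncRNA array, 1.64-fold lower at a log2 ratio of -0.71. CDK11A, from the CDK11 genes whose products pair with cyclin L, read 277 with miR-210 and 520 with ncRNA, 1.73-fold lower at -0.79. CDK11A has a near-identical copy, CDK11B, so this probe may read both. CCNL2 stood at -0.41, at 71 with miR-210 and 102 with ncRNA, inside the spread between probes. CDK13, a kinase of RNA polymerase II, read 40 with miR-210 and 74 with ncRNA, 1.72-fold lower at -0.78. CCNT2, a partner of CDK9 in transcription elongation, read 64 on the miR-210 array and 44 on the ncRNA array, 1.56-fold higher at 0.65. CDK13 on the miR-210 array and CCNT2 on the ncRNA array stood close to the level limit, so the sizes of their ratios are uncertain. With an offset of 10 before log2 these ratios were -0.66 for CDK13 and 0.54 for CCNT2. CDK9 itself stood at 0.07 (93 with miR-210 and 96 with ncRNA), and at -0.05 on the deposited scale. CDK8, the Mediator kinase, stood at -0.04 (296 and 331).

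CCNG1, a p53-responsive cyclin, read 595 with miR-210 and 877 with ncRNA, at -0.44, on the edge of the spread between probes. CCNG2 stood at 0.20 (155 with miR-210 and 147 with ncRNA). CDK20 read 48 with miR-210 and 32 with ncRNA, at 0.68. CDK20 and CDK5, at 35 with miR-210 and 45 with ncRNA (-0.27), were the genes kept with 1 array under the level limit, so their ratios rest on dim values. CDK16 and CDK17, kinases of the same subfamily, stood at 0.12 (92 on both arrays) and -0.26 (255 with miR-210 and 331 with ncRNA).

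Of the CDC25 phosphatases, which remove inhibitory phosphates from CDKs, CDC25C alone was kept. It read 73 on the miR-210 array and 53 on the ncRNA array, 1.49-fold higher at a log2 ratio of 0.58. CDC25B, reported elsewhere as a miR-210 target, read 32 with miR-210 and 44 with ncRNA and stood just under the level limit. CDC25A, at 9 and 12, was near the bottom of the range. The 5 partner genes kept lay between -0.34 and 0.05, all inside the spread between probes. Of all genes 34.8% lay outside it, so most genes of the array lay inside as well. The highest was CCNB1IP1, a ubiquitin ligase that binds cyclin B, at 537 with miR-210 and 553 with ncRNA. The lowest was CDK5RAP1, an enzyme that modifies mitochondrial tRNA, at 297 with miR-210 and 410 with ncRNA. CDK2AP1, which binds CDK2, read 2588 with miR-210 and 3149 with ncRNA (-0.07), CDK5RAP2, a centrosome protein, read 171 and 195 (-0.07), and CDK5RAP3 read 118 and 151 (-0.24).

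The 14 genes not kept had intensities between 1 and 44 and support no ratio. They were CCNA1, CCNB3, CCND2, CCNT1, CDK3, CDK14, CDK15, CDK5R1, CDK5R2, CDKN1C, CDKN2A-AS1, CDC25A, CDC25B and E2F7. Of these CCND2, the D-type cyclin, read 9 with miR-210 and 5 with ncRNA, and CCNA1, the germ cell cyclin A, read 23 and 29. CDC25B lay nearest the limit, followed by CDK5R2, an activator of CDK5 in neurons, at 33 with miR-210 and 39 with ncRNA. E2F7, an E2F that represses without a DP partner, read 38 with miR-210 and 27 with ncRNA. Just inside the limit were CDK20, CDK5 and CDKN2B.

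**Figure D3:**
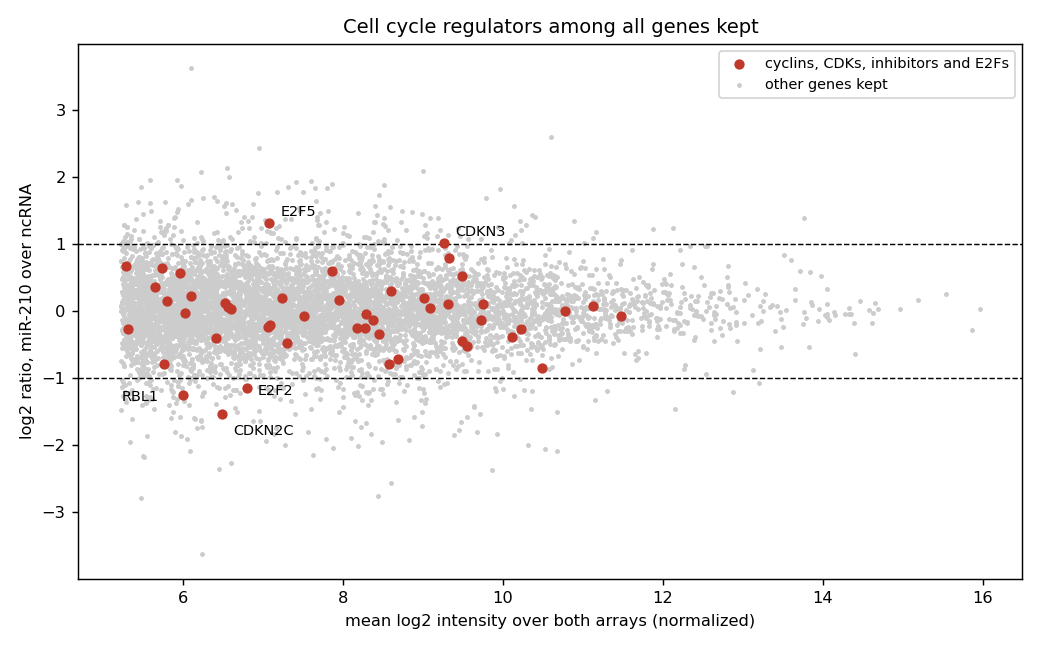
Log2 ratio of miR-210 over ncRNA (vertical) against mean log2 intensity over both arrays (horizontal) for 6684 genes kept; the 48 cell cycle regulators are in red, dashed lines mark 2-fold, and those past it are named. Apart from CDKN3, the named genes lie on the dim side, and larger ratios of other genes lie around them.

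Shares of 2-fold differences by brightness are set beside the regulators here. Among all genes kept, 7.54% of the dimmest 1671 were at least 2-fold apart, and 4.73% of the brightest 1671, with no steady fall between. The dimmest set held 10 regulators, of which RBL1 passed 2-fold. The next 1671 genes held 11, of which CDKN2C, E2F2 and E2F5 passed, where 6.10% of the 1671 did. In the next 1671, where 6.46% of genes passed, none of 11 regulators did, and in the brightest set CDKN3 was the 1 of 16 that did.

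Other genes of the cell cycle machinery were mostly less than 2-fold apart, as were most genes of the array, and most of their lists had medians close to 0. Of 35 replication and G1/S genes kept, 19 were above 0 and none reached 2-fold, where 50.2% of all genes were above 0 and 6.21% were 2-fold apart. Their median was 0.04, beside 0.01 for all genes, and CDC45 lay just short of 2-fold. The lowest were CDC45, a subunit of the replicative helicase, at 281 with miR-210 and 609 with ncRNA (-0.998), and the polymerase subunit POLA2, at 65 and 126 (-0.85). The highest were the primase subunit PRIM1, at 928 with miR-210 and 693 with ncRNA, and UHRF1, which maintains DNA methylation, at 648 and 478, both at 0.56. Of 32 mitosis genes, 19 were above 0, with a median of 0.15. MAD2L1, a spindle checkpoint protein, read 515 with miR-210 and 221 with ncRNA, 2.5-fold higher at 1.32, the only gene of all 6 lists past 2-fold. PLK4, the kinase of centriole duplication, followed at 127 with miR-210 and 69 with ncRNA (0.98). BIRC5, which encodes survivin, at 81 with miR-210 and 172 with ncRNA (-0.97), and INCENP, at 82 and 142 (-0.69), were the lowest.

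The mitotic genes PLK1, BUB1B and CCNF, also reported elsewhere as miR-210 targets and named for that reason, were not lower. They stood at 0.18 (297 with miR-210 and 287 with ncRNA), 0.60 (578 and 411) and 0.17 (127 and 121). These are RNA values from 1 array per group. Protein was not measured, and the reported targeting was not tested. The MuvB proteins form the repressor complex DREAM with RBL1 or RBL2, and later in the cycle activate mitotic genes with MYBL2 and FOXM1. This list gave 3 kept genes, too few to read against the 50.2% of all genes above 0. They were the activators MYBL2 and FOXM1 and the MuvB subunit RBBP4, each with a log2 ratio under 0. MYBL2 read 304 with miR-210 and 485 with ncRNA (-0.56), FOXM1 read 408 and 564 (-0.35) and RBBP4 read 814 and 1070 (-0.25). MYBL2 alone was past the spread between probes.

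The counts above 0 that follow stand beside 50.2% of all genes above 0, and no lean of a list was tested. Among 13 other CDK-directed kinases, subunits and cyclins, 6 were above 0, or 46.2%, and the median was 0.00. WEE1, the kinase that inhibits CDK1, read 179 with miR-210 and 125 with ncRNA (0.63), and the checkpoint kinase ATR read 249 and 198 (0.44). The checkpoint kinase CHEK1 read 270 with miR-210 and 498 with ncRNA (-0.77), and CKS2, a small CDK subunit, read 1736 and 3060 (-0.63). Of 19 genes for ubiquitin ligases that degrade cyclins and CDK inhibitors, 7 were above 0, or 36.8%, with a median of -0.02. CUL1, the scaffold of SCF ligases, read 871 with miR-210 and 583 with ncRNA (0.70), and UBE2C, a ubiquitin-conjugating enzyme of mitosis, read 1255 and 883 (0.67). ANAPC1 and ANAPC11, subunits of the anaphase-promoting complex, read 59 and 2643 with miR-210, against 106 and 4659 with ncRNA (-0.74 and -0.62). Of 16 p53 targets and regulators, 11 were above 0, or 68.8%, with a median of 0.06 that turned to -0.07 on the deposited scale. BBC3, a pro-apoptotic gene, read 260 with miR-210 and 152 with ncRNA (0.90), and the phosphatase gene PPM1D read 150 and 110 (0.56). SFN, a 14-3-3 gene of epithelia, read 7094 with miR-210 and 12693 with ncRNA (-0.57), and BTG2 read 38 and 58 (-0.50).

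**Figure D4:**
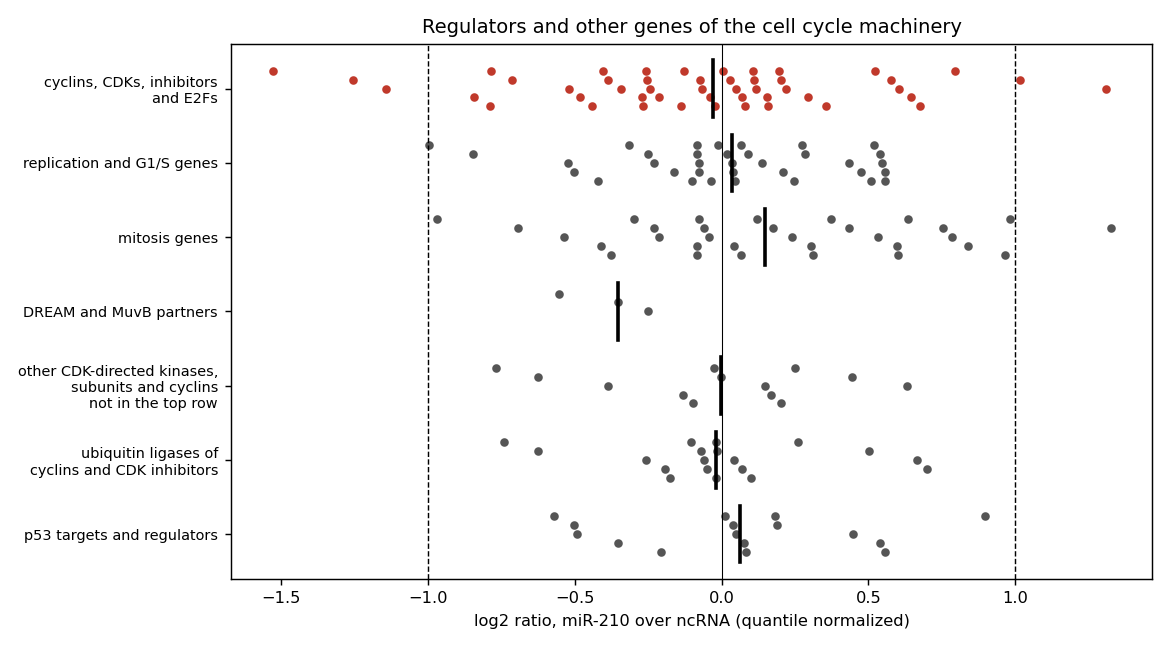
Log2 ratio of miR-210 over ncRNA for the genes kept in 7 sets, with a bar at each median; the cyclins, CDKs, inhibitors and E2Fs are in the top row in red and dashed lines mark 2-fold. All medians but that of the 3 DREAM and MuvB genes lie within 0.15 of 0, and on the deposited scale the medians of the replication and p53 sets turned under 0.

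Processing moved these ratios little in comparison with the spread between probes, although only normalization and the offset could move a gene with 1 kept probe. Across the alternatives run, CDKN2C lay between -1.64 and -1.37, RBL1 between -1.36 and -1.08, E2F2 between -1.26 and -1.05 and E2F5 between 1.20 and 1.31. CDKN3 lay between 0.88 and 1.02, so that its place past 2-fold depended on the setting. The stricter level filter gave a value for 28 of the 48 genes. Over the settings in which a gene had a value, 6 of the 48 changed sign, and these were CCNB1, CCNB1IP1, CCND1, CDK1, CDK9 and E2F1, all close to 0. CDK16, with equal intensities, stood at 0.00 on the deposited scale.

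**Figure D5:**
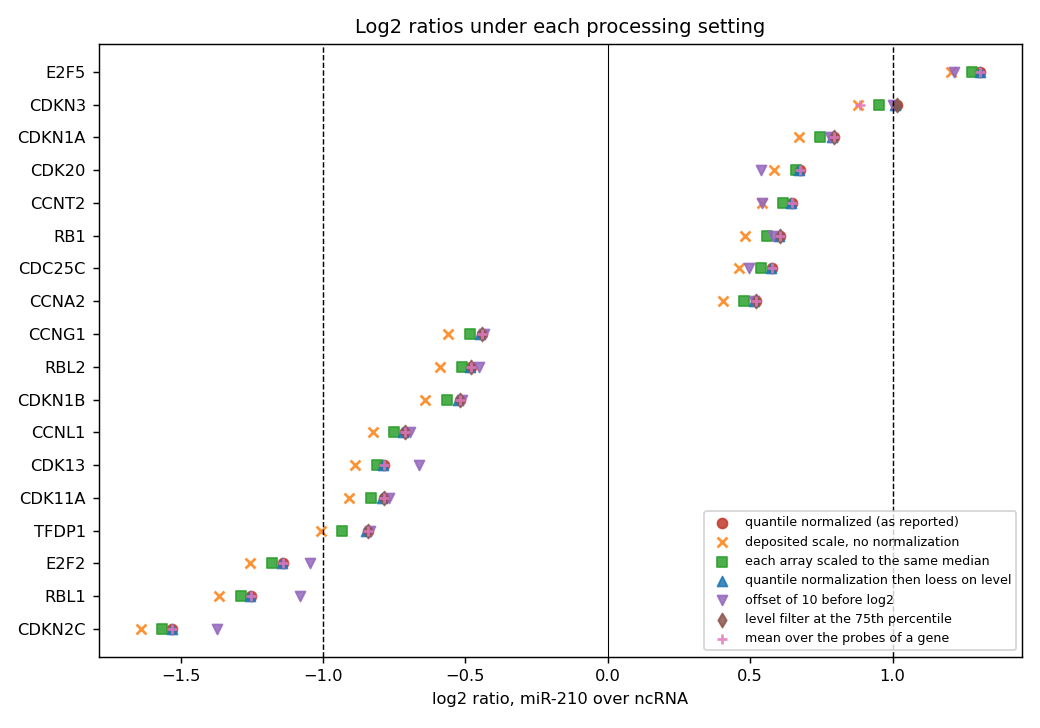
Log2 ratio of miR-210 over ncRNA under 7 processing settings (markers) for the 18 genes further from 0 than the spread between probes; dashed lines mark 2-fold. Each gene stays on 1 side of 0 in every setting that gave it a marker, while CDKN3 and TFDP1 cross the 2-fold line.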

How the data were processed

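Total RNA of 2 transfected cultures was measured on 1 array each. The authors deposited 1 table with an intensity on a linear scale for each of 24267 probes. The unit was read from the values, which are whole numbers from -8 to 65496. For the scanner, background correction and normalization, the sources used here give nothing. Groups came from the sample titles.

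The 24177 probes above 0 on both arrays were quantile normalized on the log2 scale, and genes were filtered on mean level as stated above. No control spots or detection calls were used. Gene symbols came from the platform annotation (13395 probes with 1 symbol, none with several and 10872 unnamed here), and 2286 of 12474 symbols were updated through the RefSeq gene table of GRCh38.p14. The symbol CDC2 is a synonym of CDK1 and POLD1 in that table and was read as CDK1, since POLD1 has its own probe. No coordinates are given for the probes, because no build is named for the array.

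With 1 array per group, genes are described by size, with at least 2-fold as the limit. Values are printed for every member past the spread between probes, all kept inhibitors, E2F and pocket protein genes, the extremes of each role group, and the 2 highest and 2 lowest genes of each list. Members and lists were chosen with earlier results of these data known. Normalization and the ratio were tested on simulated data, with changes placed only in brighter probes. That test did not cover dim genes, the spread between probes, the lists or the site search. Precision is limited by the number of arrays. Alternatives covered normalization, an offset of 10 before log2, the level filter and probe averaging. Python 3.11.15, numpy 2.4.6, pandas 2.3.3 and statsmodels 0.14.6 were used.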

Additional observations from a re-analysis of the deposited data

How the results depend on the processing

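No paired analysis was possible because each group has 1 array. The count of regulators at least 2-fold higher was 1 in place of 2 on the deposited scale, with each array scaled to the same median, with an offset of 10, with a stricter level filter (75th percentile) and with the mean over the probes of a gene. With the stricter filter 28 of the 48 genes remained and the count at least 2-fold lower was 0 in place of 3, because CDKN2C, RBL1 and E2F2, like E2F5, were too dim to be kept. Among all genes, the same filter left 95 higher and 97 lower in place of 202 and 213, and no level filter gave 874 and 862. On the deposited scale, where the median of all genes kept was -0.12, the median of the regulators was -0.18. On that scale the list medians were -0.11 for replication, 0.029 for mitosis, -0.47 for DREAM and MuvB, -0.14 for other CDK-directed kinases, -0.16 for ubiquitin ligases and -0.070 for p53 targets, so that replication and p53 targets changed sign. With no level filter the DREAM and MuvB median was -0.25. Of 409 ratios of single regulators under the alternatives, none moved by more than 0.44. Many of them could not move, since the level filters and probe averaging leave the ratio of a gene with 1 kept probe as it was. For such genes only the changes of normalization and the offset could move a ratio. Leaving out the probe read as CDK1, and requiring both arrays to reach the level limit, were added after seeing the data and left both counts at 2 and 3. The regulators that these checks removed, CDK1, CDK20 and CDK5, were all under 2-fold, so the counts could not change. The dim genes, with values near the level limit, limit what can be said of the size of their ratios.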
